A study of Bos taurus with 252 samples.

Results

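The 10 transcripts described here encode antimicrobial and granule proteins of the neutrophil, and they were taken by symbol from the gene count table, which lists 33282 genes. They were the cathelicidins CATHL1, CATHL2, CATHL3 and CAMP, the specific granule proteins LTF, LCN2 and PGLYRP1, the gelatinase MMP9 and the azurophil granule proteins BPI and MPO. No filter on expression was used to choose them, and all 10 also passed the filter for testing. Neutrophils make these proteins mainly in the bone marrow, where azurophil granules are filled first, specific granules next and gelatinase granules last. The messages are then largely lost, so mature cells in blood carry protein with little of the matching RNA. Cattle store their cathelicidins as precursors in large granules and cut them to active peptides when the cell is stimulated.

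The samples were whole blood of 42 crossbred steers, drawn into tubes that lyse the cells and preserve RNA. The paper recorded breed by eye, as Bos taurus or Bos indicus, and names the mix of breeds as a limit. Breed was not a term in the tests here. Blood of every steer was taken on day 0 and then 3, 7, 14, 21 and 56 days later, which gave 1 library per steer and day. There were 7 groups of 6 steers. Each group was kept in 1 pen, so treatment and pen cannot be told apart in any comparison with the control. The negative control (NC) received no antimicrobial, and each other group received 1 dose of a drug. The drugs were the macrolides tulathromycin (TULA) and tildipirosin (TILD), the cephalosporin ceftiofur (CEFT), the fluoroquinolone enrofloxacin (ENRO), and florfenicol (FLOR) and oxytetracycline (OXYT), which like the macrolides act on the bacterial ribosome. The dose followed the blood draw of day 0, so every day 0 library was untreated. All cattle, NC included, had received tildipirosin, a hormone implant, antiparasitics and vaccines when backgrounding began, and none was treated for disease in the trial. Day 0 followed arrival at the feedlot, so a change with day cannot be told apart from age, season or life in the feedlot. Lane 1 carried all libraries of NC and ENRO, lane 2 those of TULA, lane 3 those of CEFT and OXYT, and FLOR and TILD were each spread over 2 lanes.

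Library totals lay between 26.1 M and 74.1 M counts (M, 1e6), with a median of 43.6 M. Values are given as CPM, the counts per M counts of the library, after TMM scaling. They are not divided by transcript length, so levels are compared between libraries and never between genes. A count of 0 allowed a level of up to 3 counts, which is 0.0688 CPM in the median library and 0.115 CPM in the smallest, for counting error alone. In whole blood, fewer cells of a type and less RNA per cell cannot be told apart. All 13 markers of mature neutrophils analysed here were detected, with a median sum of 4993 CPM on day 0 (range 2669 to 8114).

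Cathelicidin transcripts were scarce in most libraries and abundant in a few. CATHL1, a cyclic dodecapeptide precursor, had no count in 118 libraries, a median of 0.0384 CPM and a highest value of 23.5 CPM. CATHL2, a precursor of a proline-rich bactenecin, was found more widely, with no count in 22 libraries, a median of 0.367 CPM and a maximum of 23.9 CPM. CATHL3, another proline-rich bactenecin precursor, had no count in 102 libraries, a median of 0.0866 CPM and a maximum of 14.6 CPM. CAMP had no count in 182 libraries, a median of 0 CPM and a maximum of 4.58 CPM.

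All 4 were counted together in 53 libraries, and 12 libraries held none of them. CATHL2 was counted on all 6 days in 26 of 42 steers, against 5 steers for CATHL3, 2 for CATHL1 and 1 for CAMP, while CAMP was never counted in 8 steers. The 10 libraries with the highest values held 66.8% of all CATHL1 CPM, 61.3% of CAMP, 59.8% of CATHL3 and 36.9% of CATHL2. The cathelicidin genes are near relatives, and the table does not show how reads that match several of them were divided, so values of single cathelicidins are uncertain to that extent. In RefSeq's ARS-UCD2.0 annotation, which is a later build than the one the reads were aligned to, 7 cathelicidin genes lay on 1 chromosome within a run of 11 gene records.

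**Figure D1:**
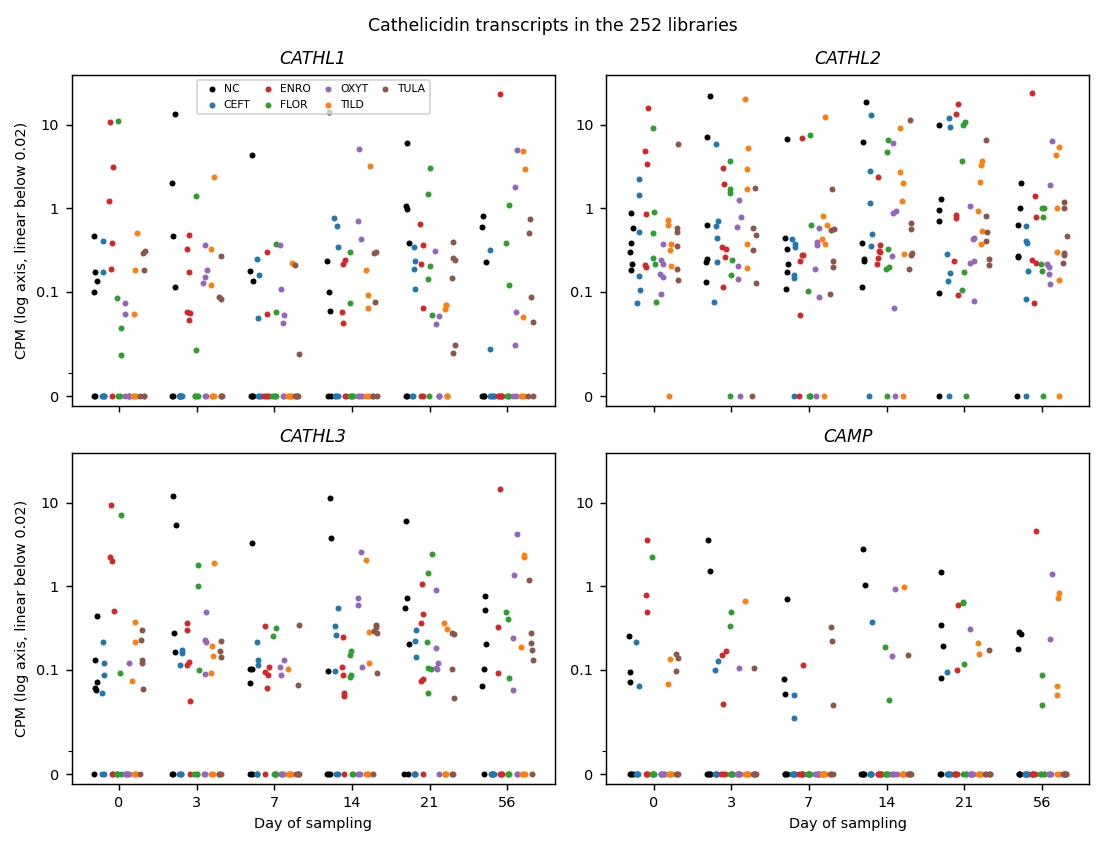
CPM of CATHL1, CATHL2, CATHL3 and CAMP (vertical axis, logarithmic above 0.02 CPM and linear below) in each library, by day of sampling and coloured by group; points on the lowest line had no count. Most libraries lay below 1 CPM, and the highest point of all 4 genes was a single ENRO library on day 56.

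The highest value of all 4 cathelicidins came from ENRO steer 8 on day 56, with 23.5 CPM of CATHL1, 23.9 of CATHL2, 14.6 of CATHL3 and 4.58 of CAMP. The same library held the highest value of PGLYRP1, a peptidoglycan-binding protein of specific granules, at 33.3 CPM, and 9.65 CPM of LTF, the iron-binding lactoferrin. On its other 5 days, steer 8 held at most 0.187 CPM of CATHL1 and 1.65 CPM of PGLYRP1. The steer thus went from no CATHL1 count on day 21 to the highest value of the series on day 56.

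NC steer 5, which received no drug in the trial, reached 13.6 CPM of CATHL1 on day 3 and held 4.38 and 14.4 CPM at the draws of days 7 and 14, against 0.463, 0.975 and 0.592 CPM on days 0, 21 and 56. Its PGLYRP1 was 28.8, 17.3 and 29.8 CPM on days 3, 7 and 14, against 2.52, 5.39 and 4.01 CPM at the other draws. High values thus lasted over 3 consecutive draws in this steer. ENRO steer 10 (10.7 CPM of CATHL1) and FLOR steer 3 (11.2 CPM) were high on day 0, before any drug was given. The libraries of ENRO steer 8 on day 56, ENRO steer 10 on day 0 and NC steer 5 on day 3 were among the 10 highest for all 4 cathelicidins, LTF and PGLYRP1.

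Mature neutrophil markers were not uniformly high in these libraries. Their summed CPM in ENRO steer 8 on day 56 ranked 41 of 42 on that day, at 2658 against a median of 3695. In NC steer 5 it ranked 20 on day 3 and 13 on day 14, in ENRO steer 10 it ranked 16 on day 0, and in FLOR steer 3 it ranked 3 on day 0. The sum of 8 erythroid markers, in which hemoglobin dominates, ranked 3 in NC steer 5 on day 3 (61293 CPM against a median of 6105), 1 in the same steer on day 14 (271324 against 31890), 2 in ENRO steer 10 on day 0 (21475 against 2335), 13 in FLOR steer 3 on day 0 (5769) and 13 in ENRO steer 8 on day 56 (7092 against 3383). The part of red cell precursors in the high values was not tested.

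CATHL2 was also high where CATHL1 was not. CATHL2 exceeded 2 CPM in 46 libraries of 21 steers, and CATHL1 stayed below 0.4 CPM in 25 of these, from 12 steers, with no CATHL1 count at all in 11. TILD steer 3 had 20.3 CPM of CATHL2 on day 3 and 12.2 on day 7 without a count of CATHL1. ENRO steer 5 had 17.5 CPM on day 21 and CEFT steer 8 had 13.2 CPM on day 14, again without CATHL1. FLOR steer 3 was high in both on day 0 (9.09 CPM of CATHL2 and 11.2 of CATHL1) but not later, with 9.93 CPM of CATHL2 and 0.205 of CATHL1 on day 21. The converse was not seen, since CATHL1 exceeded 2 CPM in 15 libraries and CATHL2 exceeded 2 CPM in all 15. In 1 of the 25 libraries, NC steer 13 on day 14, CATHL3 (3.79 CPM) and CAMP (1.03 CPM) were among their 10 highest values. These limits were chosen after the values had been seen.

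**Figure D2:**
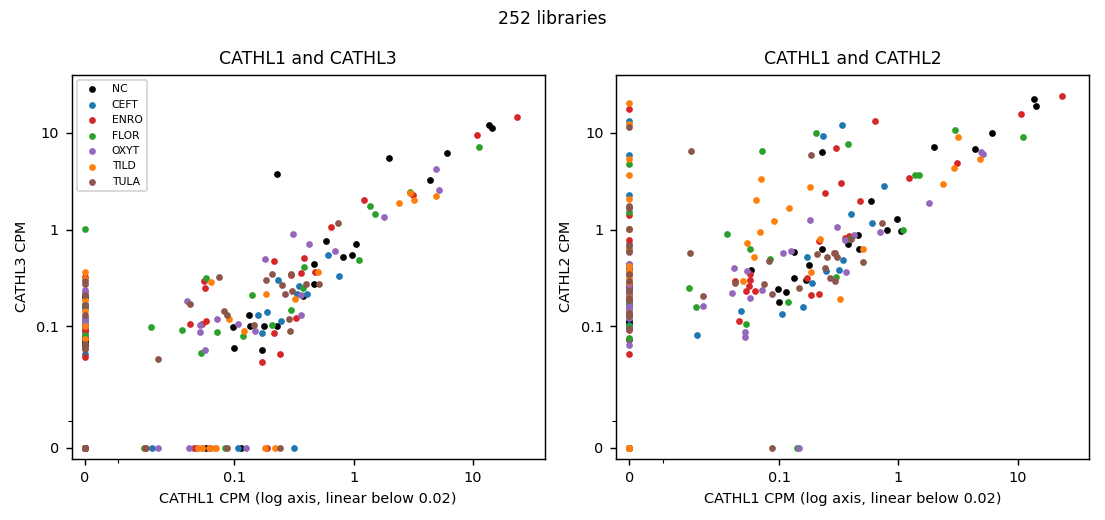
CPM of CATHL3 (left) and CATHL2 (right) against CPM of CATHL1 in all libraries, all axes logarithmic above 0.02 CPM and linear below, coloured by group. CATHL3 rises along a single band with CATHL1, while CATHL2 has a column of libraries up to 20.3 CPM at a CATHL1 count of 0.

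Across libraries the members fell into sets. The values below are Pearson correlations of log2 CPM over all libraries (42 steers on 6 days) after each group's mean of the day was subtracted. They are descriptions, because libraries share steers, lanes and the total to which they are scaled. CATHL1 and CATHL3 had r = 0.83, CATHL3 and CAMP 0.79 and CATHL1 and CAMP 0.78, while CATHL2 reached 0.59 to 0.61 with each of the other cathelicidins. PGLYRP1 had r = 0.78 with LTF and 0.66 to 0.73 with the cathelicidins. BPI, the bactericidal permeability-increasing protein, stood apart, with r between -0.21 and 0.05 for all 9 other members. LCN2, a lipocalin that binds bacterial siderophores, did not exceed 0.33 with any member.

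The genes most like each member differed in kind. Leaving the members themselves aside, LOC112441458, LOC112443481 and CATHL4 were the 3 closest to CATHL1 (0.85, 0.82 and 0.79), and the same 3 non-members were closest to CATHL3, CAMP and PGLYRP1. LOC112443481 lay among the cathelicidin genes in the RefSeq annotation. The third closest non-member to CATHL2 was AHSP (0.62), which stabilizes alpha hemoglobin. Among non-members, LTF was closest to AZU1 (0.67), an azurophil granule protein, and also close to SLC4A1 (0.63), the anion exchanger of the red cell membrane. The median r over the 8 erythroid markers was 0.47 for LTF, 0.42 for CATHL2 and 0.38 for PGLYRP1, against -0.0022, -0.0060 and -0.0038 over all 19055 other genes tested.

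MMP9, the matrix metalloproteinase of gelatinase granules, was closest to ADGRG3 (0.79), MAEA (0.77) and TCN1 (0.75), of which TCN1 is a vitamin B12 binder of specific granules. LCN2 was closest to POU2F2 (0.68), CD79B (0.67) and TNFRSF13C (0.67), which are genes of B cells, and its median r was 0.55 over 7 B cell markers and 0.08 over 13 mature neutrophil markers. BPI was closest to SIGLEC1 (0.70), ZBP1 (0.67) and RTP4 (0.63), genes known to respond to interferon. MPO, myeloperoxidase, was closest to ALOX5 (0.82), ALOX15 (0.82) and SMPD3 (0.80). Its median r was 0.39 over 7 eosinophil and basophil markers, from -0.04 to 0.75 for IL5RA, the interleukin receptor chain of eosinophils. Over the mature neutrophil markers the median was 0.16, with up to 0.49 for PADI4. CEBPE, a regulator of granulocyte development, also had r = 0.75 with MPO, and the median over 7 such regulators was 0.21.

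Every group held cathelicidin counts, and every group had libraries without them. Of the 36 libraries of a group, CATHL1 had no count in 14 (NC and ENRO) to 22 (CEFT), CATHL3 in 9 (ENRO) to 20 (TILD) and CAMP in 19 (NC) to 30 (OXYT). CATHL2 had no count in 1 library of ENRO and of TULA and in up to 7 (FLOR). The CATHL2 median was 0.228 CPM in OXYT, 0.245 in FLOR, 0.312 in ENRO, 0.349 in NC, 0.366 in CEFT, 0.434 in TULA and 0.681 in TILD, and all 7 ranges began at 0. CATHL1, CATHL3 and CAMP had no count in any of the 6 libraries of a group on a day in 1, 1 and 7 of 42 such sets, CATHL1 in CEFT on day 3 and CATHL3 in CEFT on day 56.

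The other members were counted almost everywhere. LTF, LCN2, MMP9, PGLYRP1 and BPI had counts in every library, and MPO lacked a count in 2. Over all libraries, LCN2 ranged from 5.31 to 51.2 CPM (median 21.1) and MMP9 from 1.53 to 40.1 CPM (median 9.45). BPI ranged from 1.85 to 93.3 CPM (median 11.3), LTF from 0.0867 to 10.3 CPM (median 0.792), PGLYRP1 from 0.260 to 33.3 CPM (median 1.41), and MPO reached 19.3 CPM (median 1.66). The 10 highest libraries held 31.5% of all PGLYRP1 CPM, 23.1% of LTF, 20.3% of MPO, 16.8% of BPI, 11.3% of MMP9 and 7.94% of LCN2. LCN2 was thus spread most evenly over the libraries and CATHL1 least. No library was among the 10 highest both for MMP9 and for any cathelicidin.

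Steers differed from one another more than days did for every member. Differences between steers took 59.4% of the variance of log2 CPM for LCN2, 56.2% for BPI, 50.5% for MPO and 28.2% to 46.6% for the other 7. Differences between days took 20% for MPO, 10.6% for MMP9, 9.39% for BPI, 5.19% for PGLYRP1 and at most 3.71% for the other 6. Treatment groups, which are sets of steers, took between 3.55% (CATHL2) and 14.1% (BPI).

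The change with day was the same question in every steer, namely how a transcript moved from the day of arrival through 56 days on feed. It was tested with edgeR's quasi-likelihood test with steer as a block, averaged over the 7 groups, at a Benjamini-Hochberg adjusted p (FDR) under 0.05 over all 19056 genes tested. Of the 7 members that could be tested over all days, 6 changed on some day, against 77.7% of all genes. CATHL1, CATHL3 and CAMP could not be tested so because at least 1 group had no count of them on some day. The members that changed from day 0 were MMP9 on day 3 (1 of 8 testable; 40.4% of all genes), MMP9, BPI and LCN2 on day 7 (3 of 9; 45.2%), and MPO, PGLYRP1, BPI and MMP9 on days 14 (4 of 9; 63.3%), 21 (4 of 9; 64.8%) and 56 (4 of 8; 63.9%). None of the shares for a single day was above that of all genes.

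MPO, which makes hypochlorous acid in the azurophil granule, rose from day 14 on. Its median over 42 steers was 0.908 CPM on day 0, then 1.20, 1.31, 1.71 and 2.07 CPM, and 3.29 CPM on day 56. The log2 change from day 0 was 0.62 ± 0.17 (SE) on day 14, 1.04 ± 0.17 on day 21 and 1.68 ± 0.17 on day 56 (edgeR FDR 5.79e-17). The day 14 call was lost without the steer block (FDR 0.0683). MPO was higher on day 56 than on day 0 in 39 of 42 steers and in at least 5 of 6 steers of every group, with mean log2 differences of 1.20 (TULA) to 2.14 (TILD). The group medians went from 0.905 to 4.50 CPM in NC, 0.652 to 2.46 in CEFT, 1.79 to 7.83 in ENRO and 0.787 to 3.31 in FLOR. In OXYT they went from 0.728 to 1.90 CPM, in TILD from 0.702 to 3.39 and in TULA from 2.16 to 4.22. The untreated steers thus showed the rise as well as the treated ones. By lane, the mean difference was 1.56, 1.49 and 2.08 on lanes 1 to 3. MPO was also the only member that rose from day 21 to day 56 (0.64 ± 0.17, edgeR FDR 0.00683, 1 of 8 testable, against 7.49% of all genes). Genes like MPO rose as well, with log2 changes on day 56 of 2.45 for ALOX15, 1.94 for ALOX5 and 1.77 for SMPD3.

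BPI fell. Its medians were 17.8, 14.6, 13.5, 8.69, 11.2 and 8.73 CPM in the order of days. The log2 change was -0.43 on day 7, -0.87 and -0.73 on days 14 and 21, and -0.97 on day 56, each ± 0.16 (edgeR FDR 3.35e-08), with a lower value on day 56 in 36 of 42 steers. The day 7 call was lost in limma (FDR 0.0525), there also without NC, CEFT, OXYT, TILD or TULA (FDR 0.0574 to 0.245), and without the steer block (FDR 0.203). The mean difference on day 56 was -1.04, -0.29 and -1.14 on lanes 1 to 3, and 3 of 6 FLOR steers were higher. Of the genes like BPI, SIGLEC1 changed by -0.95, ZBP1 by -1.06 and RTP4 by -0.68 on day 56. BPI and MPO, stored in the same granule, thus moved in opposite directions.

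MMP9 was lower than on day 0 on all 5 later days. Its medians were 14.0, 9.32, 7.70, 9.51, 7.90 and 9.81 CPM in the order of days. The log2 changes were -0.50, -0.76, -0.50, -0.79 and -0.46, each ± 0.13, with lower values in 27, 34, 32, 32 and 27 of 42 steers. In the 6 NC steers alone MMP9 was not called on any day, and it was 0.10 above day 0 on day 7 and 0.07 above on day 56. The median sum of 13 mature neutrophil markers moved with it, from 4993 CPM on day 0 to 3224 on day 7 and 3695 on day 56, and the part of neutrophil number in the fall of MMP9 was not tested.

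PGLYRP1 rose from day 14 on. Its medians were 1.01, 1.24, 1.32, 1.66, 1.49 and 1.77 CPM, and the log2 change was 0.62 ± 0.22 on day 14 (edgeR FDR 0.0144), 0.60 ± 0.22 on day 21 (0.0196) and 0.65 ± 0.22 on day 56 (0.0119). It was higher than on day 0 in 29, 30 and 25 of 42 steers on these days. The calls depended on single groups in limma. The day 14 call was lost without NC (FDR 0.0606), the day 21 call without NC, CEFT, OXYT or TILD (FDR 0.0508 to 0.0936) and the day 56 call without NC, OXYT, TILD or TULA (FDR 0.0659 to 0.204). Without NC steer 5 and ENRO steer 8 the changes were 0.70, 0.60 and 0.50 and all were called.

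LCN2 was lower on day 7 alone, at -0.29 ± 0.084 (edgeR FDR 0.00205), with medians of 21.5 CPM on day 0, 17.9 on day 7 and 21.5 on day 14. This call rested on the ENRO group, since without it the change was -0.12 (limma FDR 0.297), and in NC alone it was 0.37 upward. LTF was not called on any day (edgeR FDR for any day 0.553), with changes between -0.15 and 0.22, each with an SE of 0.22. Its medians lay between 0.702 and 0.892 CPM on all 6 days.

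**Figure D3:**
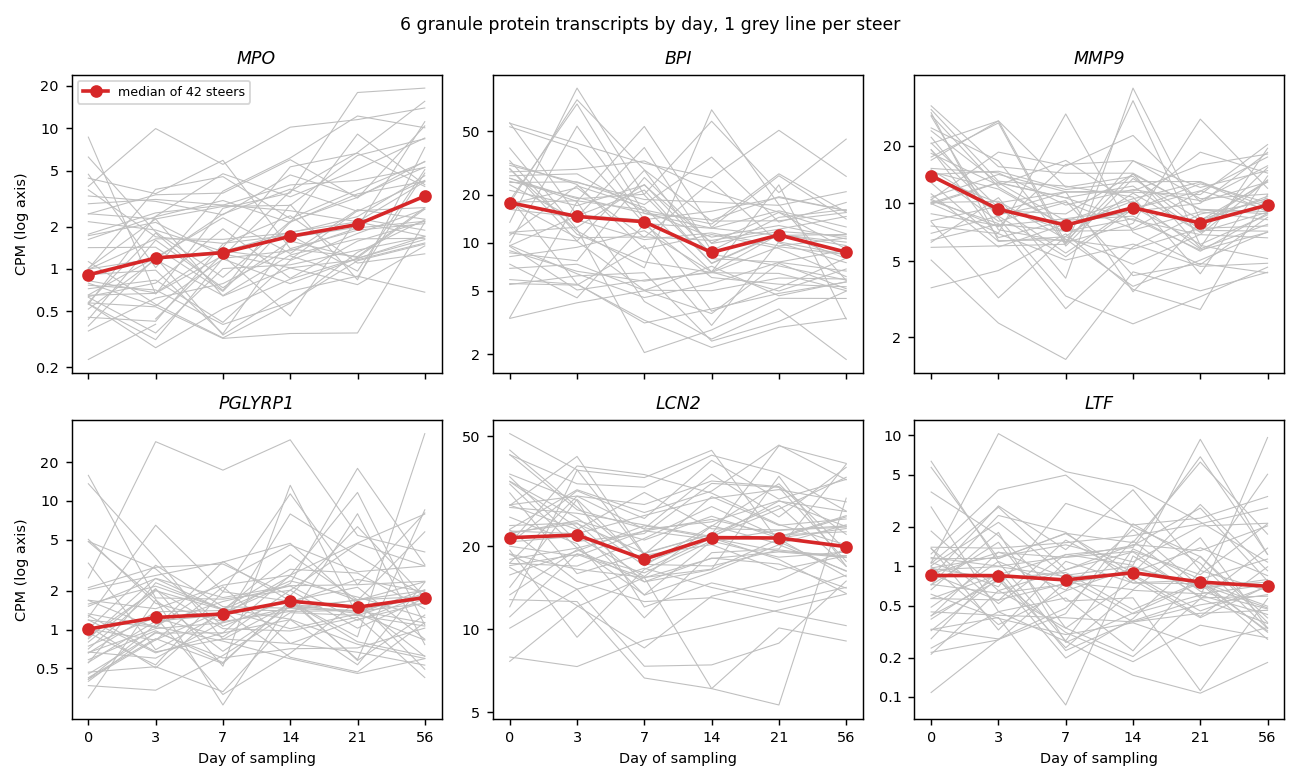
CPM (logarithmic axis) of MPO, BPI, MMP9, PGLYRP1, LCN2 and LTF by day of sampling, with 1 grey line per steer and the median of 42 steers in red. The median of MPO climbs from 0.908 to 3.29 CPM, those of BPI and MMP9 fall from 17.8 to 8.73 and from 14.0 to 9.81 CPM, and that of LTF stays between 0.702 and 0.892 CPM.

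CATHL1, CATHL2 and CATHL3 were each missing from more libraries on day 7 than on any other day. Libraries without a count of CATHL1 numbered 19, 20, 25, 19, 13 and 22 of 42 in the order of days, and those without CATHL3 numbered 18, 16, 22, 14, 13 and 19. CATHL2 had no count in 7 libraries on day 7 and in 1 to 4 on the other days. CATHL2 had medians of 0.333, 0.457, 0.278, 0.361, 0.522 and 0.295 CPM in the order of days. From day 3 to day 7, CATHL3 (-1.78 ± 0.62, edgeR FDR 0.0203) and LCN2 (-0.26 ± 0.084, FDR 0.0155) fell, 2 of 8 testable members against 21.9% of all genes. From day 7 to day 14, CATHL3 (1.64 ± 0.62, FDR 0.0150), CATHL2 (0.997 ± 0.389, FDR 0.0348), PGLYRP1 (0.64 ± 0.22), MPO (0.41 ± 0.17) and LCN2 (0.21 ± 0.084) rose and BPI fell by 0.44 ± 0.16 on the log2 scale, which were 6 of 9 against 47.8%. CATHL1 moved by 1.43 ± 0.65 over the same step and was not called (FDR 0.0631). By steer, CATHL3 was lower on day 7 than on day 3 in 22 of 42, higher in 10 and equal in 10. On day 14 it was higher than on day 7 in 20 steers, lower in 13 and equal in 9. The median log2 difference of CATHL3 over that step was 0. CATHL2 was higher on day 14 than on day 7 in 29 steers and lower in 12. The steps between consecutive days were not rerun in the alternatives. No member was called from day 14 to day 21 in edgeR (0 of 9, with 2 at an unadjusted p under 0.05, against 14.1% of all genes).

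Against day 0, CATHL2 was not called on a single day in edgeR (0.49 ± 0.39 on day 14, FDR 0.2996, and 0.83 ± 0.38 on day 21, FDR 0.0696) but was called over all days together (FDR 0.0392). In limma it was higher on day 14 (1.299, FDR 0.00268) and on day 21 (1.29, FDR 0.00239), in 26 and 29 of 42 steers, and edgeR without the steer block called both days as well (FDR 0.0197 and 0.0128). CATHL1 and CATHL3 were not called against day 0 on any day they could be tested in edgeR, and CAMP was not called on any day in limma (FDR 0.135 on day 7, the smallest).

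**Figure D4:**
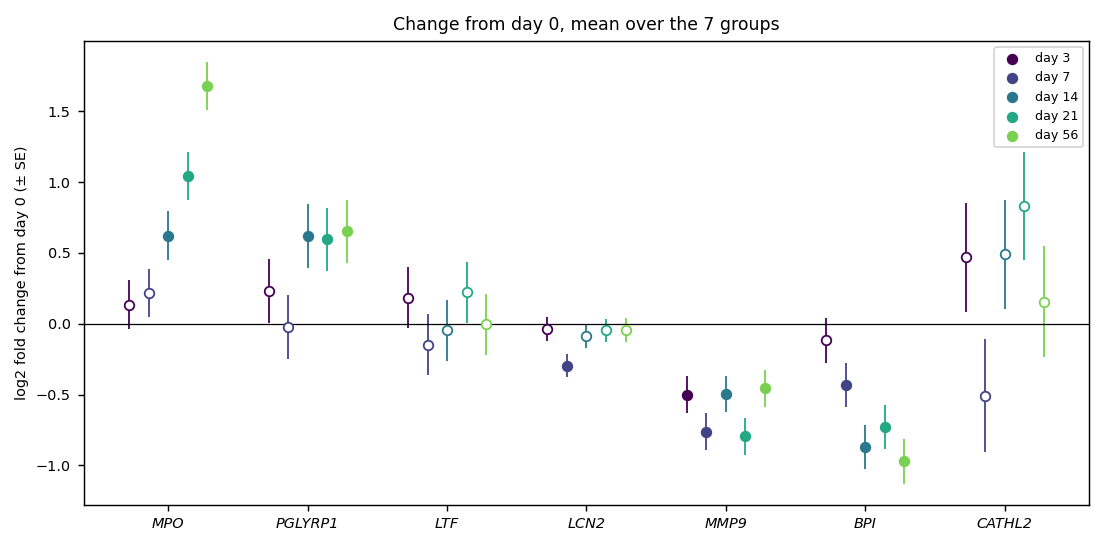
Log2 fold change from day 0 (vertical axis, error bars ± SE), averaged over the 7 groups, for the 7 members that could be tested on every day; filled points had an edgeR FDR under 0.05 and open points did not. MPO steps upward to 1.68 on day 56, BPI downward to -0.97, and the error bars of CATHL2, near 0.39, are the widest.

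The other granule genes did not move as 1 set. Of 12 other specific granule genes tested, 5 fell and none rose on day 56 (31.2% of all genes fell), among them the haptoglobin gene HP (-1.17), TCN1 (-0.95), PTX3 (-1.74) and OLFM4 (-0.36). Of 5 other azurophil granule genes, the serine protease gene PRSS57 rose (0.69) and the lysozyme gene LYZ fell (-0.43), while PRTN3 (0.81) and ELANE (0.37) were not called. Of 4 other gelatinase granule genes, MMP25 rose (0.27) and FCN1 fell (-0.30), while ARG1 (0.02) and ADAM8 (-0.36) were not called. Of 6 beta-defensins, epithelial and leukocyte peptides of another family, none was called on day 56, DEFB10 included (-0.37, edgeR FDR 0.0587). On day 7, when 45.2% of all genes were called, 3 of the 6 fell. Of 7 regulators of granulocyte development, 2 rose and 4 fell. CEBPE, a regulator of the specific granule genes, rose by 1.20, and RUNX1, SPI1 and CEBPA were lower by -0.30, -0.17 and -0.15.

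Cell type markers moved over the same days. On day 56, when 63.9% of all genes were called and 31.2% were lower, 10 of 13 mature neutrophil markers were lower and none was higher. The log2 changes were -0.62 for TREM1, -0.69 for S100A9 and -0.51 for CXCR1. Of 7 monocyte markers 5 were lower, of 7 eosinophil and basophil markers 5 were higher and 1 lower, of 8 T cell markers 7 were higher and 1 lower, and of 7 B cell markers 6 were higher and 1 lower. Of 6 NK markers 1 was higher and 5 lower, of 7 platelet markers 1 was higher, and of 8 erythroid markers 1 was higher. IL5RA rose by 1.66 and CCR3 by 0.96, both eosinophil receptors, beside MPO at 1.68. Of the same list, CPA3 changed by 0.60 and SIGLEC8 by -0.30. The median sum of the 7 eosinophil and basophil markers was 661 CPM on day 0 and 617 CPM on day 56. SIGLEC8 dominates this sum, with medians of 607 CPM on day 0 and 507 CPM on day 56, so the sum says little of the other markers. VCAN, a monocyte gene, fell by 1.21 and BLK, a B cell kinase gene, rose by 1.17. The part of these cell types in the changes of the members was not tested.

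The treatment groups were compared with NC on each day, with the same 6 NC steers in all 6 comparisons of a day. Day 0, drawn before any drug was given, is among these days, and the counts below are not split by day. In 360 tests of a member, none passed an FDR of 0.1 in edgeR, against 0.51% of all genes over the 36 comparisons, 18 of which called no gene. At an unadjusted p under 0.05 there were 70 tests, 62 of them lower in the treatment group than in NC, where 9.22% of all genes had such a p. Because day 0 is included, this direction is not one of dosed steers alone. In 9 of the 70 the treatment group had no count of the gene in any library, so that no size can be given. The high libraries of NC steer 5 enter every comparison of days 3, 7 and 14. The likelihood ratio test called 4 tests (0.91% of all genes), and DESeq2 called 14 of 296, 13 of them lower (3.37% of all genes). No member separated a treatment from NC without overlap in any comparison. The share of all genes that did so was not computed, so this is no trait of the members.

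The smallest FDR values were those of CEFT on day 3, when 8.34% of all genes were called. CATHL3 had a lowest, median and highest value of 0, 0.0563 and 0.172 CPM in CEFT against 0, 0.219 and 12.01 CPM in NC (log2 difference -5.23 ± 1.70, edgeR FDR 0.103). CATHL1 had no count in 6 of 6 CEFT libraries and in 2 of 6 NC libraries, whose median was 0.290 CPM and highest value 13.6 CPM (FDR 0.106). The ranges overlapped, and the high NC values were those of steer 5 and steer 13. Leaving out each of the 12 steers in turn gave edgeR FDR values of 0.0878 to 0.177 for CATHL3, of which only that without CEFT steer 8 was under 0.1, and without NC steer 5 the difference was -3.89 (FDR 0.163). For CATHL1, whose CEFT group has no count, the values were 0.0927 (without CEFT steer 8) to 0.171. Over all 19056 genes, the calls in these fits ran from 0 without NC steer 15 to 3406 without CEFT steer 8. When lane was a term in a fit of all 42 libraries of the day, the CATHL3 difference was 0.06. CEFT and NC lay on different lanes, so lane and drug are only separated there through the other groups.

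The mean difference over all 6 days, day 0 before the drug included, was tested in limma with steer as a random block. It passed an FDR of 0.05 for 0 of 60 member tests, against 1.95% of all genes. An unadjusted p under 0.05 was found in 2 of the 60, against 13.5% of all genes. These were MMP9 in ENRO (0.64 ± 0.29, limma FDR 0.467) and BPI in CEFT (-0.82 ± 0.40, FDR 0.242). BPI medians over the 36 libraries of a group were 6.45 CPM in CEFT, 8.21 in FLOR, 9.86 in TULA, 11.6 in NC, 12.8 in OXYT, 13.7 in ENRO and 15.8 in TILD, and the ranges of all 7 groups overlapped.

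The change from day 0 was then compared between each treatment and NC within steers, whose 6 libraries shared a lane. On single days 2 of 288 testable differences passed an FDR of 0.05 in edgeR, against 0.215% of all genes, and both were in ENRO on day 7, where 4.93% of all genes were called and 2.72% were lower. The change of LCN2 differed by -1.58 ± 0.31 (edgeR FDR 0.00386) and that of PGLYRP1 by -2.74 ± 0.83 (FDR 0.0462). The PGLYRP1 call was lost without the filter (FDR 0.0709), and without the steer block both were lost (FDR 0.170 and 0.104). MMP9 differed by -1.52 ± 0.49 and was not called (FDR 0.0513). Over all days together LCN2 (FDR 0.00242), PGLYRP1 (0.0437) and CATHL3 (0.0466) were called in ENRO, where 7.26% of all genes were. No testable member was called in the other 5 treatments, and over the 6 treatments 2.15% of all genes were. On single days, 47 of the 288 testable differences had an unadjusted edgeR p under 0.05, against 8.04% of all genes. LCN2 had 15 of these in its 30 tests, so they were not confined to ENRO. The same 6 NC steers entered the comparisons of all 6 treatments.

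LCN2 in ENRO had a lowest, median and highest value of 12.8, 30.8 and 36.5 CPM on day 0 and of 6.65, 12.7 and 18.7 CPM on day 7, and it was lower in 6 of 6 steers. In NC these values were 7.64, 14.7 and 42.9 CPM on day 0 and 15.4, 20.1 and 35.5 CPM on day 7, higher in 4 of 6 steers. The ENRO median was above that of NC before the drug and below it on day 7, and the ranges overlapped on both days. PGLYRP1 in ENRO went from 0.584, 3.47 and 15.8 CPM to 0.260, 1.33 and 3.23 CPM, and in NC from 0.368, 0.924 and 2.52 CPM to 0.629, 1.18 and 17.3 CPM.

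Before the drug, on day 0, the ENRO medians of LCN2, MMP9 and PGLYRP1 were above those of NC, but no difference passed the test. The ENRO minus NC log2 difference on day 0 was 0.60 ± 0.39 for LCN2 (edgeR FDR 0.898), 1.08 ± 0.37 for MMP9 (FDR 0.869) and 2.19 ± 0.76 for PGLYRP1 (FDR 0.869), none of which passed the FDR of 0.1. On day 7 no member passed that test between ENRO and NC either (edgeR FDR 0.250 for LCN2, the smallest of the 10). Without NC steer 5 and ENRO steer 8 the LCN2 difference in change was -1.22 and still called in limma, and that of PGLYRP1 was -2.34 with an FDR of 0.116.

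**Figure D5:**
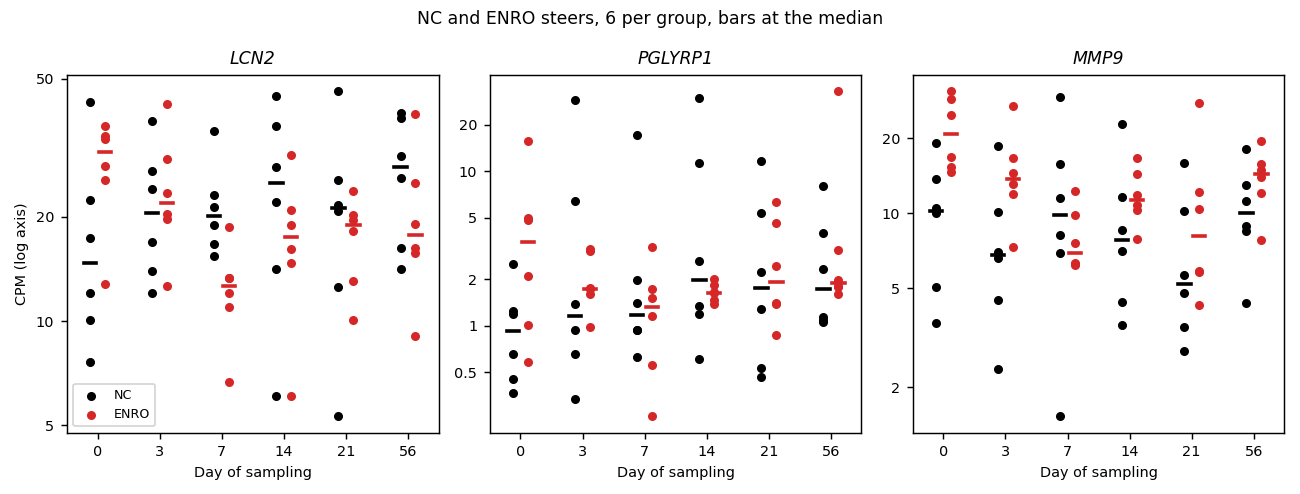
CPM (logarithmic axis) of LCN2, PGLYRP1 and MMP9 in the 6 NC and 6 ENRO steers by day of sampling, with bars at the group medians. For LCN2 the ENRO median is above that of NC on day 0 (30.8 against 14.7 CPM) and below it on day 7 (12.7 against 20.1 CPM), with overlapping points on both days.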

How the data were processed

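Blood RNA of 42 steers on 6 days was made into stranded mRNA libraries by the authors. According to the submitters' processing notes, reads were trimmed (Trimmomatic 0.39), aligned to ARS-UCD1.3 (HISAT2 2.1.1) and assembled (StringTie 2.2.0), and counts were derived from transcript coverage for a read length of 150. The deposited counts are whole-number estimates per gene, neither normalized nor adjusted for lane.

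The scripts ran in R 4.3.3. Tests used edgeR 4.0.16, limma 3.58.1 was the second tool for changes with day, and DESeq2 1.42.0 and sva 3.50.0 (ComBat_seq) served alternatives. The edgeR tests and the limma mean difference over all days were checked on simulated data. The genes changed there were drawn from those with higher counts. DESeq2, ComBat_seq and limma with steer as a fixed block were not checked so. A gene was tested when its CPM passed 0.2 in 12 or more libraries, which left 19056 genes. Fold changes in edgeR are fitted log2 ratios, and for correlations and variance shares 2 counts were added before the log2 of CPM. Each treatment was compared with NC per day (FDR 0.1), and days were compared within steers with steer as block (FDR 0.05). Libraries of a steer were paired by animal, with a median correlation of 0.339 among themselves and -0.0665 with those of group mates, higher in 42 of 42 steers. Tests with the steer block were void where a compared group had no count on the day. The 9 day tests of that kind were kept in the counts, without a fold change.

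The members and all lists were chosen with earlier results of these data known. The 10 members were always named, and beside them up to 4 genes per list with the smallest p over days and the 3 non-member genes most correlated with each member. Steers 5 (NC) and 8 (ENRO) were left out as an alternative, and adjusted deviances were tried in edgeR, after the values had been seen. Other alternatives were the likelihood ratio test, DESeq2, other size factors, no filter, ComBat_seq by lane, a lane term, no block, NC alone and leaving out groups or steers. Gene IDs were matched to RefSeq (ARS-UCD2.0) for 10 of 10 members. Some genes that this rule names are not reported here.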

Additional observations from a re-analysis of the deposited data

Results flagged for a closer look

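In sets of 6 libraries of a group on a day, a single library stood apart from the other 5 (Dixon's ratio above its 95% critical value) in 10 sets for CATHL1, 13 for CAMP, 5 each for CATHL2 and CATHL3, 4 each for LTF and MPO, 3 for PGLYRP1, 2 for LCN2 and 1 for BPI. These were 47 of 411 sets, or 11.4%, where chance gives about 1 in 20, and the library was the highest of its set in 44 and the lowest in 3. In 16 of the 47, among them 12 of the 13 for CAMP, the other 5 libraries had no count, which fixes the ratio at its maximum, so the chance level does not apply to them. Another 9 sets had no count in any library. The libraries came from many steers, with 35 libraries in all, and 3 of them stood apart for at least 3 members, namely NC steer 5 on day 7 (5 members), ENRO steer 8 on day 56 (4) and FLOR steer 3 on day 0 (3). The members are correlated, so these sets are not independent.

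Changes from day 0 differed between ENRO and NC. The difference on day 7 was -1.58 for LCN2 and -2.74 for PGLYRP1 (log2, edgeR with steer as block), and over all days together the FDR was 0.00242 for LCN2, 0.0437 for PGLYRP1 and 0.0466 for CATHL3. Both LCN2 and PGLYRP1 had higher medians in ENRO than in NC before the drug was given.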

How the results depend on the processing

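The count of member calls in the 36 day tests, 0 as reported, was 4 with the likelihood ratio test, 2 with adjusted deviances (0.652% of all genes), 2 with ComBat_seq by lane and the likelihood ratio test (0.198%), 14 with DESeq2 and 6 in 1 fit of 42 libraries per day (1.69%). It stayed 0 with other size factors, without the filter, with ComBat_seq alone and with a lane term. Leaving out each steer in turn in CEFT on day 3 gave 0 to 2 calls. Both of the 2 calls came without CEFT steer 8, when 3406 of 19056 genes were called. Without NC steer 15 no gene was called. For the change from day 0, the 6 NC steers alone gave 0, 0, 1, 0 and 2 calls in the order of days and 1 over all days, with fewer samples. Of the 19052 genes tested there, 6, 420, 4927, 3878 and 4907 were called, and 5328 over all days. Without the replicate block, day 7 had 1 call, and in limma day 3 had 2 calls without ENRO and 2 without TULA. The same fits called 6362, 7178 and 7259 of 19056 genes. For the change against NC on single days (2 as reported), there were 0 calls without the replicate block, 5 in limma, 1 without the filter and 1 without NC steer 5 and ENRO steer 8. Over all genes, ENRO on day 7 had the most calls of any single day in each of these fits. They were 14 without the block, 1188 in limma and 303 without those steers, of 19056 genes, and 503 of 28408 without the filter. Over all days (3 as reported) there were 5 in limma and 1 without the filter. ENRO there had 1625 calls over all genes in limma and 1047 without the filter. The mean difference over all days gave 7 calls, 6 of them lower, without the replicate block that treats libraries of a steer as related. The share of all genes called in that fit is not given here, so these calls are no trait of the members. Direction reversed in NC alone for LCN2 on day 7 (0.37) and for MMP9 on day 7 (0.10) and day 56 (0.070), and with a lane term for CATHL3 (0.058) and CAMP (1.87) in CEFT on day 3. The causes were not tested. Of 254 alternative values for 22 single results, 203 kept direction and call, 33 lost the call, 13 gained it and 5 reversed. Of 27 changes from day 0 that were not called, 15 changed sign in some alternative. Depth limited CATHL1, CATHL3 and CAMP, which had at most 3 counts in 153, 119 and 194 libraries.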
